A study of Arabidopsis thaliana with 3 samples.

Results

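The transcripts described here are those whose log2 ratio between apetala1 and wild-type inflorescences of Arabidopsis thaliana was -1 or lower, a difference of at least 2-fold, on every one of 3 two-colour cDNA arrays. This held for 104 of the 9413 probes. They were chosen by their log2 ratios on all 3 arrays, so these ratios are a description and carry no test. Each array carried total RNA of wild-type inflorescences in channel 1 and of apetala1 inflorescences in channel 2. Array 1 has the label set 1, and arrays 2 and 3 both have the label set 2. The apetala1 allele, the accession, the age and growth of the plants, the number of plants pooled and the dyes were not stated in the labels used here, and nothing says that the 3 arrays carried RNA of separate plants.

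From the order of the channels a negative ratio is likely a lower level in apetala1 than in wild type. The labels do not settle this direction. Since apetala1 RNA was in the same channel on every array and the dyes are unknown, a preference of single probes for 1 dye and a difference between the genotypes cannot be told apart. All pairs of arrays correlated positively over the 9413 probes, at a Pearson's r of 0.74 for arrays 1 with 2, 0.64 for 1 with 3 and 0.50 for 2 with 3, so the arrays ran the same way. In whole inflorescences a lower share of cells of a type and less RNA per cell cannot be told apart.

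APETALA1 is a MADS-domain transcription factor of the floral meristem. It acts with LEAFY and CAULIFLOWER to turn a lateral meristem into a flower, and it holds back the genes that keep a meristem in the inflorescence state, such as TFL1, AGL24 and SVP. Later it takes part in specifying sepals and petals, in the outer whorls of the flower, where it works together with SEPALLATA proteins and, in petals, with APETALA3 and PISTILLATA. A strong apetala1 inflorescence therefore differs from wild type in the organs it bears as well as in the state of its meristems. Each probe is a spotted cDNA named by its source plate and well. The files do not pair probes with genes, so the roles of the 104 transcripts, and whether APETALA1 itself is among them, were not analysed here. Several probes may stand for 1 gene, so a count of probes is not a count of genes.

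The 104 probes were 1.10% of those measured. Array 3 was the array that decided most of the choice. At -1 or lower there were 248 probes on array 1, or 2.63%, 330 on array 2, or 3.51%, and 136 on array 3, or 1.44%. The 104 were thus 41.9% of the probes past that level on array 1, 31.5% of those on array 2 and 76.5% of those on array 3. In all, 389 probes reached -1 on at least 1 array, of which 168 did so on 1 array and 117 on 2. Of the 136 probes past it on array 3, 22 were past it on that array alone. The ratios of array 3 were also narrower over all probes, with an SD of 0.38, against 0.52 on array 1 and 0.57 on array 2.

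The differences of the 104 probes were mostly well past the 2-fold limit. On array 1 their log2 ratios ran from -3.23 to -1.02 with a median of -2.17. On array 2 they lay between -3.16 and -1.01 with a median of -2.13, and on array 3 between -3.26 and -1.02 with a median of -1.87. As deposited, the medians of arrays 1 and 2 were thus nearly equal, and that of array 3 was closer to 0. With the arrays scaled to 1 median absolute deviation the medians were -1.98, -1.76 and -2.70, so that array 3 was the lowest. The order of the arrays therefore depends on the scale of each array. The 9309 other probes had medians of 0.01, 0.03 and 0.01 on arrays 1, 2 and 3.

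Averaged over the 3 arrays, the median difference of the 104 probes was 4.19-fold, with the middle 50% of them between 3.16-fold and 5.36-fold. The smallest mean difference was 2.20-fold and the largest 8.55-fold. In 54 probes the mean log2 ratio was -2 or lower, a difference of at least 4-fold, and in 15 it was -2.5 or lower.

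**Figure D1:**
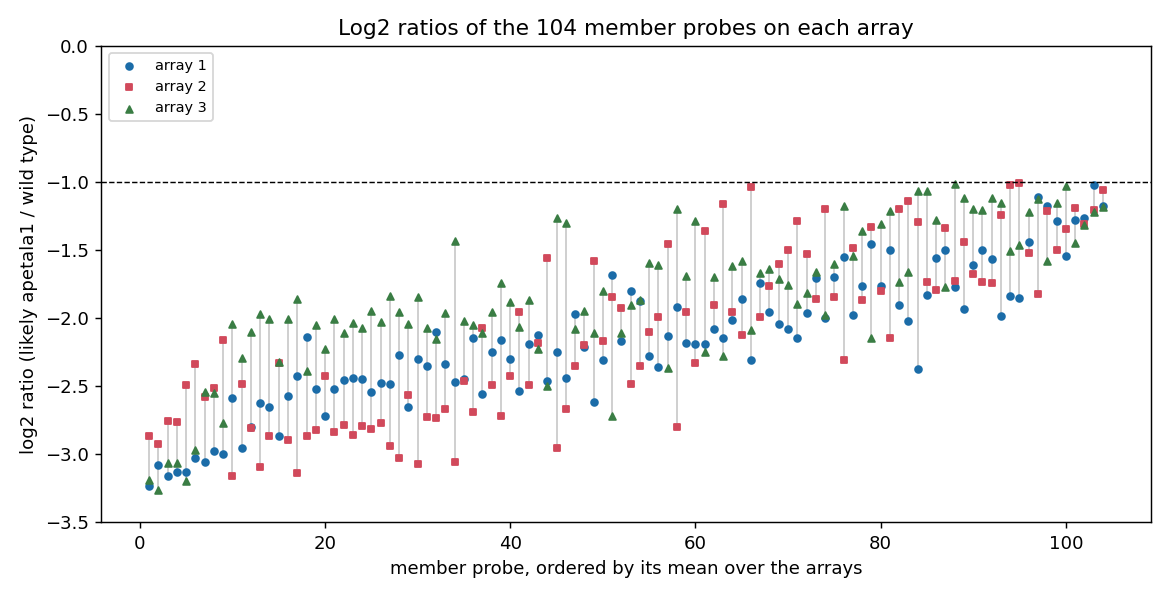
Log2 ratios of the 104 probes on arrays 1 (circles), 2 (squares) and 3 (triangles), as deposited, ordered by the mean of each probe, with a grey line joining its lowest and highest value and a dashed line at -1. The values span -3.26 to -1.01, and array 3 is the array closest to 0 for 63 of the 104 probes.

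Requiring a lower ratio on every array left fewer probes in steps. At -1.5 or lower on all 3 arrays 63 probes remained, at -2 or lower 30, at -2.5 or lower 6, and at -3 or lower 0. On single arrays 9, 8 and 5 probes were at -3 or lower on arrays 1, 2 and 3, but no probe was so on all of them. The same count on the positive side, of probes likely higher in apetala1, was 84 at 1 or higher on every array, or 0.892% of all probes. It was 2 at 1.5 or higher and 0 at 2 or higher. These counts were not tested against each other.

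**Figure D2:**
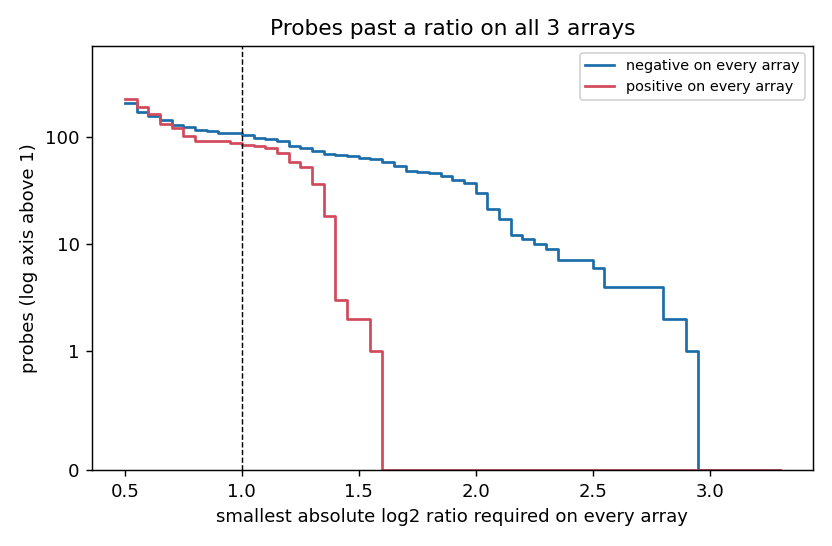
Number of probes whose absolute log2 ratio is at least the value on the horizontal axis on every array, for negative (blue) and positive (red) ratios, on a log axis above 1, with a dashed line at 1. At 1 the curves stand at 104 and 84 probes, and at 2 at 30 and 0.

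The 30 probes at -2 or lower on every array came from 25 plates, between plates 7 and 108. Their medians were -2.62, -2.74 and -2.13 on arrays 1, 2 and 3. The 6 probes at -2.5 or lower came from 5 plates between plates 60 and 86. They lay between -3.23 and -2.98 on array 1, between -2.93 and -2.51 on array 2 and between -3.26 and -2.54 on array 3. In these 6 array 2 had the median closest to 0, -2.76 against -3.11 on array 1 and -3.06 on array 3, while over the 30 it had the lowest median.

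Probe GP086D1 had the lowest value on its weakest array. It read -3.08 on array 1, -2.93 on array 2 and -3.26 on array 3, a mean of -3.09 ± 0.17 (SD, n = 3) or 8.51-fold. All 3 arrays were close to each other for this probe, and array 3 was the lowest. Probe GP091G11 had the widest range over the arrays. It read -2.25 on array 1, -2.96 on array 2 and -1.26 on array 3, a mean of -2.16 ± 0.85 (SD, n = 3) or 4.45-fold. Array 3 was the array closest to 0 for this probe, and the range over the arrays was 1.69.

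At the other end, 41 probes had at least 1 array above -1.5. Their medians were -1.83, -1.46 and -1.30 on arrays 1, 2 and 3. The 6 probes just inside the limit had a weakest value between -1.04 and -1.01, on array 2 in 3 of them, on array 3 in 2 and on array 1 in 1. The 3 probes just outside it had a weakest value of -0.98, -0.97 and -0.96. In steps of 0.1, the weakest value lay between -1.2 and -1.1 in 13 probes and between -1.1 and -1 in 9 on the inner side of the limit. On the outer side it lay between -1 and -0.9 in 3 and between -0.9 and -0.8 in 8.

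The median SD of a probe over the 3 arrays was larger in the 104 probes than over all probes. A level that is large against this SD follows in part from the choice at -1 or lower on every array. The SD over the arrays ran from 0.03 to 0.85 with a median of 0.35, beside a median level of -2.07. Over all 9413 probes the median SD was 0.24. The 84 positive probes had a median SD of 0.30, at a median level of 1.58. The most even of the 104 read between -1.31 and -1.26 on all 3 arrays.

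Choosing probes on 2 arrays left the other array as a value that the choice had not used. Of the 109 probes at -1 or lower on arrays 2 and 3, 104, or 95.4%, were also at -1 or lower on array 1, where 2.63% of all probes were (Wilson 95% interval 89.7% to 98.0%, for counting error only). Of the 109 probes at -1 or lower on arrays 1 and 3, likewise 104, or 95.4%, were so on array 2, where 3.51% of all probes were. All 109 probes were negative on the held-out array in both cases. Of the 211 probes at -1 or lower on arrays 1 and 2, by contrast, 104, or 49.3%, were so on array 3 (Wilson 95% interval 42.6% to 56.0%), where 1.44% of all probes were. A large negative ratio on array 3 thus nearly always came with one on the other arrays when 1 of them had it, and the reverse held for about 50% of probes. The same 104 probes count in all 3 shares, so the shares differ only through the number chosen, 109, 109 or 211. Array 3, with the narrower ratios, had 136 probes at -1 or lower, against 248 on array 1 and 330 on array 2. A preference of single probes for 1 dye could also repeat on a held-out array. Each held-out value is a single array, so the shares have no replicate and no test. The intervals take the probes as independent, which probes of the same gene would not be.

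On array 3 few of the 211 probes lay just above the limit. There 36 had a ratio between -2 and -1.5 and 27 between -1.5 and -1. In steps narrower than these, 4 lay between -1 and -0.75, 22 between -0.75 and -0.5, and 40 between -0.5 and -0.25. The 107 probes that did not reach -1 on array 3 had a median of -0.33 there and 15 of them were at 0 or above. They also had smaller differences on the other arrays, with medians of -1.65 on array 1 and -1.73 on array 2, beside -2.17 and -2.13 in the 104. Their lowest values, -3.74 on array 1 and -3.91 on array 2, were those of a single probe that read -0.40 on array 3, and both were below any value of the 104 on those arrays.

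**Figure D3:**
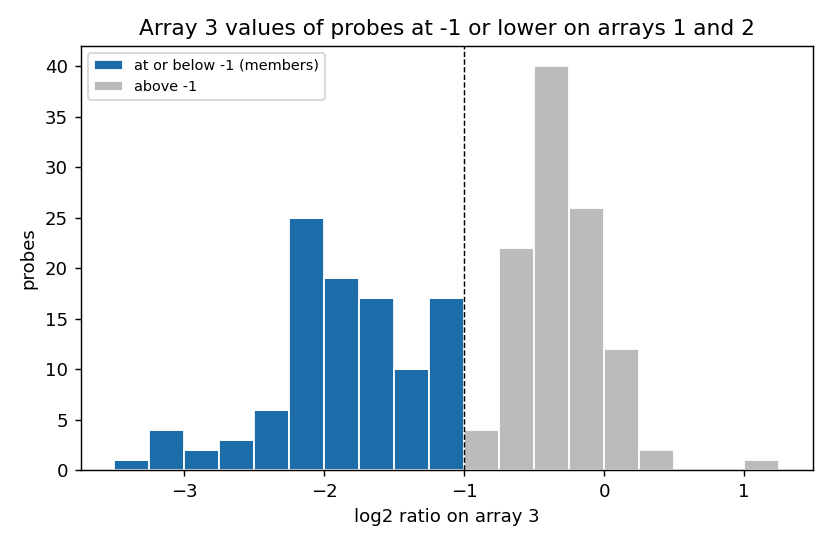
Histogram of the log2 ratio on array 3 for the 211 probes at -1 or lower on arrays 1 and 2, in steps of 0.25, with the 104 that reach -1 on array 3 in blue, the other 107 in grey and a dashed line at -1. The step from -1 to -0.75 holds 4 probes, between a broad group below it and a narrower group around -0.33.

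Within the 104 probes the arrays ranked the differences in a similar but not the same way. Across probes, which are not independent replicates and share the arrays, Pearson's r was 0.62 for arrays 1 with 2, 0.75 for 1 with 3 and 0.40 for 2 with 3 (n = 104 probes). Spearman's rho was 0.64, 0.70 and 0.39. Over these probes array 3 was thus closer to array 1 than to array 2, with which it shares a set label. Over all 9413 probes array 3 was also closer to array 1 than to array 2, but arrays 1 and 2 had the highest r, 0.74. Choosing on all 3 values narrows their range, so the sizes of r and rho are not comparable with those over all probes.

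The order of the 3 arrays, as deposited, differed between the probes. In 44 of the 104, or 42.3%, array 2 was lowest, array 1 next and array 3 closest to 0. In 21 array 1 was lowest and array 2 closest to 0, and in 19 array 1 was lowest and array 3 closest to 0. Array 2 was the lowest array in 49 probes, array 1 in 40 and array 3 in 15. With the arrays scaled to 1 median absolute deviation, an alternative added after seeing the data, these counts were 5, 7 and 92. The orders given here and in the profiles thus hold for the deposited scale only. On the positive side 68 of 84 probes, or 81.0%, had 1 order, with array 2 highest and array 1 closest to 0. Array 1 was closest to 0 in 10 of the 104 negative and 76 of the 84 positive probes. The difference of array 2 minus array 3 ran from -1.69 to 1.11 in the 104 probes, with 42 at -0.5 or lower, 47 within 0.5 of 0 and 15 at 0.5 or higher. On the deposited scale the 2 arrays of the same set label therefore disagreed in both directions. On the scaled values array 3 was the lowest array in 92 probes, and so was mostly below array 2.

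The probes were sorted into profiles so that every pair in a profile lay within 0.6 of each other on each array. This gave 20 profiles of 2 to 14 probes, with no probe alone. The 9 profiles of at least 5 probes held 68 of the 104. The same sorting of the 84 positive probes gave 6 profiles, the largest of 30 probes. Their ratios had a smaller SD over probes on each array, so the numbers of profiles are not directly comparable. With distances of 0.4 and 0.8 the 104 probes formed 32 and 10 profiles, so the number of profiles is not a fixed property of the data.

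The profile with the most probes, 14 from 11 plates, averaged -2.40 ± 0.14, -2.67 ± 0.15 and -1.99 ± 0.10 on arrays 1, 2 and 3 (SD over its probes). The next, 10 probes from 10 plates, had -2.53 ± 0.16, -2.98 ± 0.13 and -1.96 ± 0.09 (SD over probes). The order was array 2 lowest, then array 1, then array 3 in 13 of the 14 and in all 10 probes. Array 3 thus averaged about -2 in both profiles. On array 2 their probes overlapped, from -2.86 to -2.43 in the first and from -3.16 to -2.81 in the next. The sorting used these same values, so the difference of their means on array 2 follows from it. The sorting also keeps the SDs over probes small, here and in the groups below, since it limits the distance within a group.

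Measured around a single probe, the largest group of near-identical probes held 19 of the 104, or 18.3%, all within 0.3 of that probe on each array. Their means were -2.44 ± 0.15, -2.85 ± 0.15 and -1.98 ± 0.10 on arrays 1, 2 and 3 (SD over probes), and they came from 15 plates between plates 55 and 108, with at most 4 from 1 plate. The largest such group of the 84 positive probes held 71 of them, or 84.5%. The positive probes were also less spread, with SDs over probes of 0.32, 0.37 and 0.17 on arrays 1, 2 and 3. In the 104 these SDs were 0.50, 0.63 and 0.52. A fixed distance takes in more of a less spread set. No test was made of the difference in these shares. Whether near-identical probes are clones of 1 gene was not tested.

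Profiles lowest on array 1 were also among the strongest. A profile of 4 probes from 4 plates, GP086D1 among them, had the lowest mean of all profiles, with -3.15 ± 0.06, -2.83 ± 0.08 and -3.14 ± 0.10 on arrays 1, 2 and 3 (SD over probes). Here arrays 1 and 3 were nearly equal and array 2 was closer to 0. A profile of 5 probes from 5 plates had -2.91, -2.47 and -2.39, so that arrays 2 and 3 were nearly equal. A profile of 3 probes had -3.05, -2.33 and -2.98, again with array 2 closest to 0.

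A further pair of profiles, of 4 probes each, had array 2 well above the others. Their means on arrays 1, 2 and 3 were -2.35, -1.49 and -2.31 for one profile and -2.15, -1.17 and -2.06 for the other. The opposite case was a profile of 3 probes with -2.18, -2.60 and -1.26 and a pair of probes, GP091G11 among them, with -2.36, -3.0 and -1.35. Array 3 was the array closest to 0 in all 5 of these probes. Among the weak differences, a profile of 6 probes had -1.24, -1.22 and -1.42, with array 3 lowest.

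**Figure D4:**
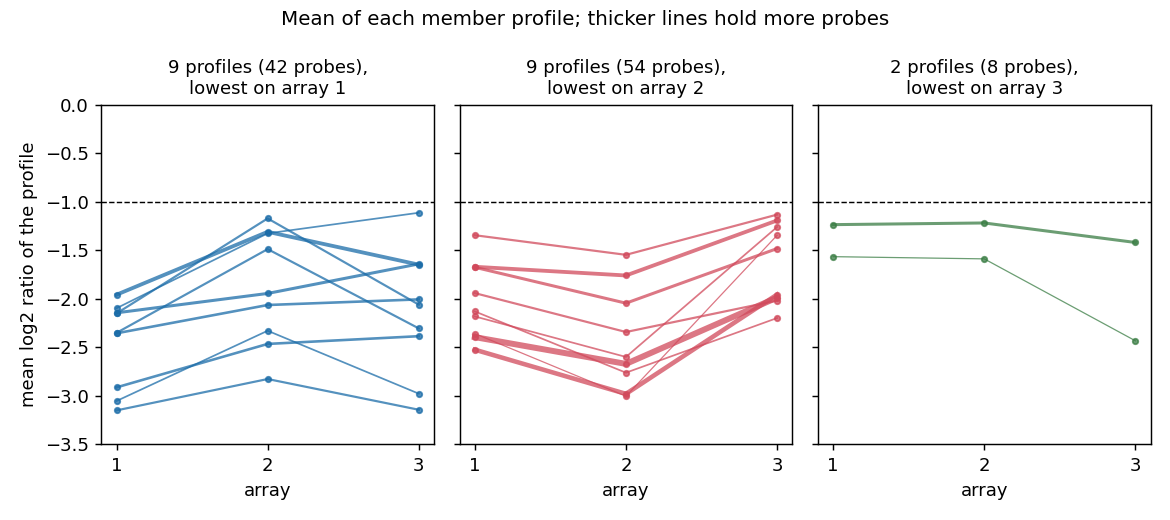
Mean deposited log2 ratio of each of the 20 profiles on arrays 1, 2 and 3, in panels by the array on which the profile is lowest, with thicker lines for profiles of more probes and a dashed line at -1. Array 1 is lowest in 9 profiles of 42 probes, array 2 in 9 of 54 and array 3 in 2 of 8.

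The position of a probe in the clone collection was not used to choose it. The 104 probes came from 53 of the 114 plates, with 1 probe on 26 plates, 2 on 17 and at least 3 on 10. Plate 1 held 12 of them among its 71 probes, or 16.9%, and plate 5 held 6 among 59, or 10.2%, against 1.10% over all plates. No other plate held more than 4. The 86 probes outside these plates were 0.926% of the 9283 probes there.

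The 12 probes of plate 1 were on the weak side of the 104. Their means over the arrays lay between -1.94 and -1.47, all closer to 0 than the median of -2.07, and 4 of them were closer to 0 than the upper quartile of the 104. On single arrays they lay between -2.18 and -1.56 on array 1, between -1.96 and -1.5 on array 2 and between -1.76 and -1.12 on array 3. None of them was at -2 or lower on every array. They fell into 4 profiles with 3 orders of the arrays. They made up 5 of the 8 probes of a profile with means of -1.67, -1.76 and -1.19, and 4 of the 6 probes of another with -2.15, -1.95 and -1.64. Of the others 2 were in a profile with array 2 closest to 0 and 1 in a profile with array 2 lowest. The 6 probes of plate 5 lay between -2.31 and -1.18 on array 1, between -2.17 and -1.22 on array 2 and between -1.80 and -1.07 on array 3.

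Along the plate numbers the share of the probes was uneven. Plates 0 to 59 held 30 among 1925 probes, or 1.56%, of which 18 were those of plates 1 and 5. Without these, the block held 12 among 1795, or 0.669%. Plates 60 to 89 held 36 among 2663, or 1.35%, and plates 90 to 119 held 35 among 2566, or 1.36%. Plates 120 to 147 held 3 among 2259, or 0.133%. Of the 84 positive probes, 22, 25, 35 and 2 lay in the same 4 blocks. The low share on plates 120 to 147 was thus found on both sides. This division of the plates was made with earlier results of these data known and has no test. The median of the mean log2 ratios was -1.76, -2.18, -2.21 and -1.31 in the 4 blocks of plates, and in the first it was -1.91 without plates 1 and 5. Of the 30 probes at -2 or lower on every array 4, 14, 12 and 0 lay in the 4 blocks. On plates 120 to 147, 21 probes were at -1 or lower on arrays 1 and 2, of which 18 did not reach it on array 3. In the earlier blocks 25 of 55, 38 of 74 and 26 of 61 such probes did not reach it, and over all plates 107 of 211.

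**Figure D5:**
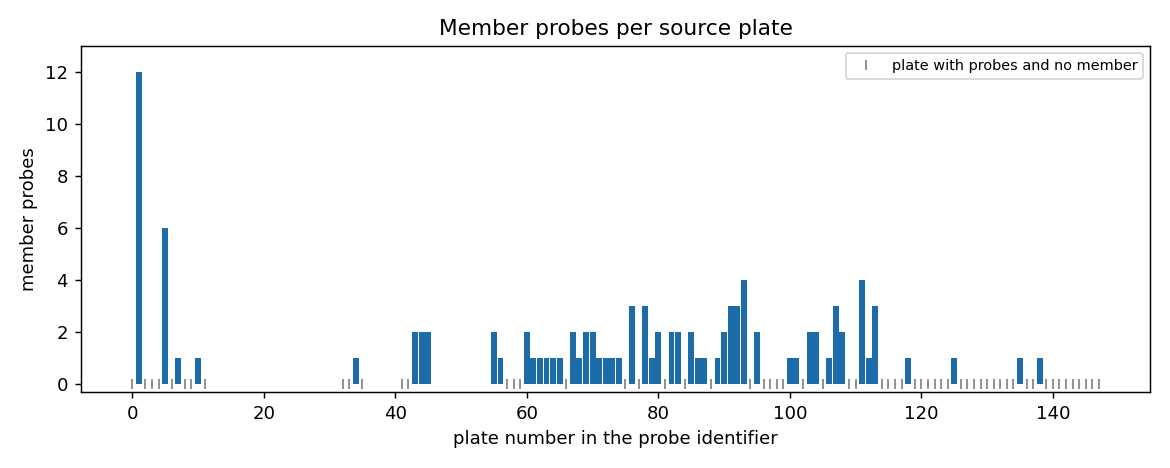
Number of the 104 probes on each source plate, by the plate number in the probe identifier, with grey ticks for plates that hold none. Plates 1 and 5 hold 12 and 6, no other plate more than 4, and plates 120 to 147 hold 3 in all.

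Probes of the 104 from 1 plate resembled each other more often than those of different plates. Of 128 pairs on the same plate 36, or 28.1%, lay within 0.3 on every array, against 290 of 5228 pairs on different plates, or 5.55%. Pairs share probes, so this is a description. On plates 1 and 5 the count was 27 of 81 pairs, or 33.3%, and on all other plates 9 of 47, or 19.1%. In 15 pairs, made of 27 probes, the source wells were neighbours, 12 along a row and 3 along a column. Of these pairs 9 lay within 0.3 on every array, 8 of the 12 along a row and 1 of the 3 along a column. GP091G11 was the neighbour of another of the 104, and both had the order array 2, array 1, array 3. What the clones of neighbouring wells are was not analysed here, and any part of clone order or carry-over in this likeness was not tested.

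The 104 probes lay in all 8 rows and all 12 columns of wells. The fewest in a row were 8 in row B, or 0.665% of its probes. The most were 18 in rows C and G, or 1.56% and 1.52%. Columns ran from 3 in column 1, or 0.376%, to 14 in column 6, or 1.83%, against 1.10% over all probes. These shares were not tested. The wells were also divided into 16 classes by row and column, each repeating every 4 wells, since the ratios of arrays 2 and 3 vary with these classes. The classes held 2 to 11 of the probes each, or 0.325% to 1.88% of the probes in a class. The median of array 2 minus array 3 over all probes of a class ran from -0.23 to 0.30. Across the 104 probes this class value correlated with a probe's own difference of array 2 minus array 3, with Pearson's r of 0.34 and Spearman's rho of 0.32, as a description of probes that share classes and arrays. With each array centred within the classes, the SD of that difference over the 104 probes was 0.60, against 0.63 as deposited, and array 2 was lower than array 3 in 72 probes, against 68. Pearson's r of arrays 2 and 3 over the 104 probes was 0.45 with this centring, against 0.40 as deposited. Among the 104, the class medians of the deposited difference ran from -1.11, over 10 probes, to 0.53, over 7. Any part of position in the disagreement of arrays 2 and 3 was not tested.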

How the data were processed

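RNA of apetala1 and wild-type inflorescences was measured on 3 two-colour cDNA arrays. The deposited values are 1 log2 ratio per probe and array, already preprocessed and normalized by the authors, per the labels. How the arrays were scanned, corrected, normalized and filtered, and with which dyes, is not given in the sources used here. Base 2 was read from the values: times the natural log of 2, 98.4% to 98.7% of them per array are whole multiples of 0.0001, within 0.02 of a step. Column medians of 0.0023, 0.023 and 0.0091 show centring near 0, so a shift shared by most transcripts cannot be seen. The direction of the ratio is unknown, and it is called likely only because of the channel order. No intensities were used here, and the number of arrays limits the precision.

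Ratios were used as deposited, without filter or further normalization, in Python 3.11.15 with pandas 2.3.3 and scipy 1.17.1. The counting and grouping steps were tested on simulated data. No significance test was made, because the ratios of all arrays chose the probes. The members, lists, distances, plate blocks and position classes were chosen with earlier results of these data known. At most 2 probe identifiers are named, by rule: the probe with the lowest value on its weakest array and the one with the widest range over arrays. Plate and well identifiers could not be joined to a table of genes, so the gene lists drawn up for this comparison were not used.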

Additional observations from a re-analysis of the deposited data

How the results depend on the processing

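Leaving out plates 1 and 5, counting the lowest array on scaled values and the distances of 0.4 and 0.8 for profiles were chosen after seeing the data. Of 47 alternatives 31 left the value within 1.5 times, within the spread over arrays or probes, or within its interval. The count of 104 probes was 95 to 107 at limits of -1.1 and -0.9, with centring, with scaling of the arrays to 1 median absolute deviation, and with centring by position class or plate, and 86 without plates 1 and 5. By construction it was 63 at a limit of -1.5, 204 with the mean over arrays in place of every array, and 167 with arrays 2 and 3 averaged. Without 1 array the count was 109 to 211, the highest without array 3, and by construction each of these included all 104. Scaling gave medians of -1.98, -1.76 and -2.70 on arrays 1, 2 and 3, so that array 3 had the lowest median in place of the one closest to 0, and made array 3 the lowest in 92 probes in place of 15, and kept 97 of the 104 probes among 100. With the choice at -1.5 the share reaching -1 was 100% on array 1, for 63 probes, and 59.4% on array 3, for 128. A distance of 0.2 gave a largest near-identical group of 12 in place of 19, and distances of 0.4 and 0.8 gave 32 and 10 profiles in place of 20. No paired analysis was possible because each ratio already holds both genotypes of 1 array and no result comes from a test. The gene lists and the averaging of probes per gene were not run, for want of a table pairing probes with genes.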
